A study of Rattus norvegicus with 35 samples.

Results

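The proteasome genes of rat converted hypoblast stem cells were the 43 transcript records, of 17201 in the count table, whose matched symbol begins with Psma, Psmb, Psmc, Psmd or Psme and a digit. Of these, 41 encode subunits, activators or assembly chaperones of the proteasome. The other two, Psmc3ip and Psme3ip1, carry the name because their proteins bind a proteasome protein, and they were kept because the symbol rule selects them. Psmb11, the thymus subunit, and Psmd11, a subunit of the regulatory particle, were not analysed here.

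The cells compared were 34 single cells and, as their population control, 1 bulk library of the same kind of cell. Both came from rat embryonic stem cells converted to hypoblast stem cells by culture in serum with the cytokine LIF and the growth factors PDGF and EGF, and both were collected on day 12 of differentiation. Single cells were captured and amplified with the C1 system, a microfluidic device with a chamber for each cell. No genotype, clone, passage or culture number was given, so the cells make up 1 sample and the bulk library another, and no difference between them could be tested.

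The proteasome is the barrel-shaped protease that degrades proteins tagged with ubiquitin. Its 20S core is a stack of rings: alpha subunits (Psma genes) form the outer rings and gate the entry pore, and beta subunits (Psmb genes) form the inner rings that hold the proteolytic sites. The 19S regulatory particle, or cap, recognises tagged proteins, removes the ubiquitin and unfolds them. Its base holds the ATPase ring (Psmc genes), and most of its other subunits carry Psmd symbols. In cells exposed to interferon gamma, the catalytic subunits Psmb5, Psmb6 and Psmb7 can be replaced by Psmb8, Psmb9 and Psmb10, giving the immunoproteasome. Psme genes encode activators that bind the core in place of the cap.

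Cells held 6288 to 503044 reads in genes (median 266046) and the bulk library 47121. Levels are given as CPM, read counts scaled to a common library total, so a single read was worth 1.99 to 159 CPM in a cell and 21.2 CPM in bulk. Each count of 0 allows up to 3 reads, which is 63.7 CPM in bulk. Of the cells, 22 had at least 50000 reads and at least 3000 genes with a read and are called gene-rich. The other 12 held 349 to 2777 genes, against 4741 in bulk. Of the 7 hypoblast markers, 6 (Gata6, Gata4, Sox17, Pdgfra, Dab2 and Foxa2) were found at 5 CPM or more in at least 17 cells. None of the 3 pluripotency markers was. The remaining hypoblast marker, Sox7, reached 5 CPM in 12 cells. Of all records, 17% reached that level in at least 17 cells, and 43.8% of those whose cell mean reached 10 CPM did.

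Printed here are the promoters of Psmb5, Psmb6, Psmb8 and Psmb10, catalytic subunits of both kinds, each of which holds the motif marked in it. Those of Psmb7 (constitutive) and Psmb9 (immune) held no match to the motif marked for their kind and are not printed. Each constitutive form was detected in at least 26 of the 34 cells and each immune form in at most 14. Any part of these motifs in that was not tested. Sequences are RefSeq's, of the rat build GRCr8, 5′ to 3′ along the strand of the gene, each 300 bases long and ending shortly after the annotated start of the gene. In Psmb5 (chr15:32047330-32047629, minus strand) and Psmb6 (chr10:55737638-55737937, plus strand), capitals mark TGACNNNGC, the antioxidant response element core to which Nfe2l1 and Nfe2l2 bind. In Psmb8 (chr20:4656982-4657281, minus strand) and Psmb10 (chr19:50743243-50743542, minus strand), capitals mark the core of the interferon-stimulated response element on either strand, which is GAAA, any 2 bases and GAAA again.
Psmb5: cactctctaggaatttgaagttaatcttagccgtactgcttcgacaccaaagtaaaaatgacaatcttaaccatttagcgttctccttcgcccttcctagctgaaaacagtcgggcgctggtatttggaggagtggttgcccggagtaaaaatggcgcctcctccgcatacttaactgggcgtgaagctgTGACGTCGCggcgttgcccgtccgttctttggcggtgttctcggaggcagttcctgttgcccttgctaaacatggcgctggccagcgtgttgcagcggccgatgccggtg
Psmb6: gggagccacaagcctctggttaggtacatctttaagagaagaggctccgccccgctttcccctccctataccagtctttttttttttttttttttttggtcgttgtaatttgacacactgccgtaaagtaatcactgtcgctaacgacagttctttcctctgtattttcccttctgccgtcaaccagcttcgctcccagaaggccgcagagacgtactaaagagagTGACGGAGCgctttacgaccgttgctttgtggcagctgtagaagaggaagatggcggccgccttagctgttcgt
Psmb8: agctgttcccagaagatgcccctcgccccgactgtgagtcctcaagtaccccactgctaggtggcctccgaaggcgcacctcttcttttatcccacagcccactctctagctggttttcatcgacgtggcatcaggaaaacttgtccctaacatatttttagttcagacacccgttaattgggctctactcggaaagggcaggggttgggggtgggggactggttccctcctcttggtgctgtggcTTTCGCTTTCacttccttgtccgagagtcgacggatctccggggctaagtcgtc
Psmb10: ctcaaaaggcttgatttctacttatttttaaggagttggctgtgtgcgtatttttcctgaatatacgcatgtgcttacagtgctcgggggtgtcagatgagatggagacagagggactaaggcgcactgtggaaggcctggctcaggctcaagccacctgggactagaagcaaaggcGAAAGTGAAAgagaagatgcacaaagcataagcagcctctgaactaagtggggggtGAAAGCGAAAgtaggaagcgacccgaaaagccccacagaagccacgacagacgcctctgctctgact

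Most proteasome genes were found in most cells. The mark for detection was a level of 5 CPM in a cell. By that mark, 36 of the 43 proteasome genes (83.7%) were detected in at least 17 of the 34 cells, whereas 17% of all records were, and 43.8% of records whose cell mean reached 10 CPM. These 36 were detected in 17 to 32 cells each, and 23 of them in every gene-rich cell. For that last count, the share of all records is not given here. The 7 below that mark were Psma8, Psmb8, Psmb9, Psmb10, Psmd10 and both interaction partners. Every proteasome gene had a count of 0 in at least 1 cell, so the lowest value over the 34 cells was 0 CPM for each.

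The number of proteasome genes detected in a cell ran from 2 in C88 and C94 to 40 in C05, with a median of 34.5, and was 37 in bulk. It was 33 to 40 in the gene-rich cells and 2 to 26 in the other 12. These sets were split by the number of genes with a read (3307 to 5514 against 349 to 2777), so a gap between them was largely set in advance. Across the 34 cells the number of proteasome genes detected followed the number of genes with a read (Spearman's rho 0.90, and 0.67 over the 22 gene-rich cells). This describes cells that share 1 library chemistry and differ in depth. With each cell thinned to 50000 reads, which left out 4 shallower cells, the median was 35 in the 22 gene-rich cells and 15.5 in 8 of the others. C03, C74 and C95 were deep, with 217328, 431709 and 450250 reads, and had 14, 17 and 13 proteasome genes detected.

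**Figure D1:**
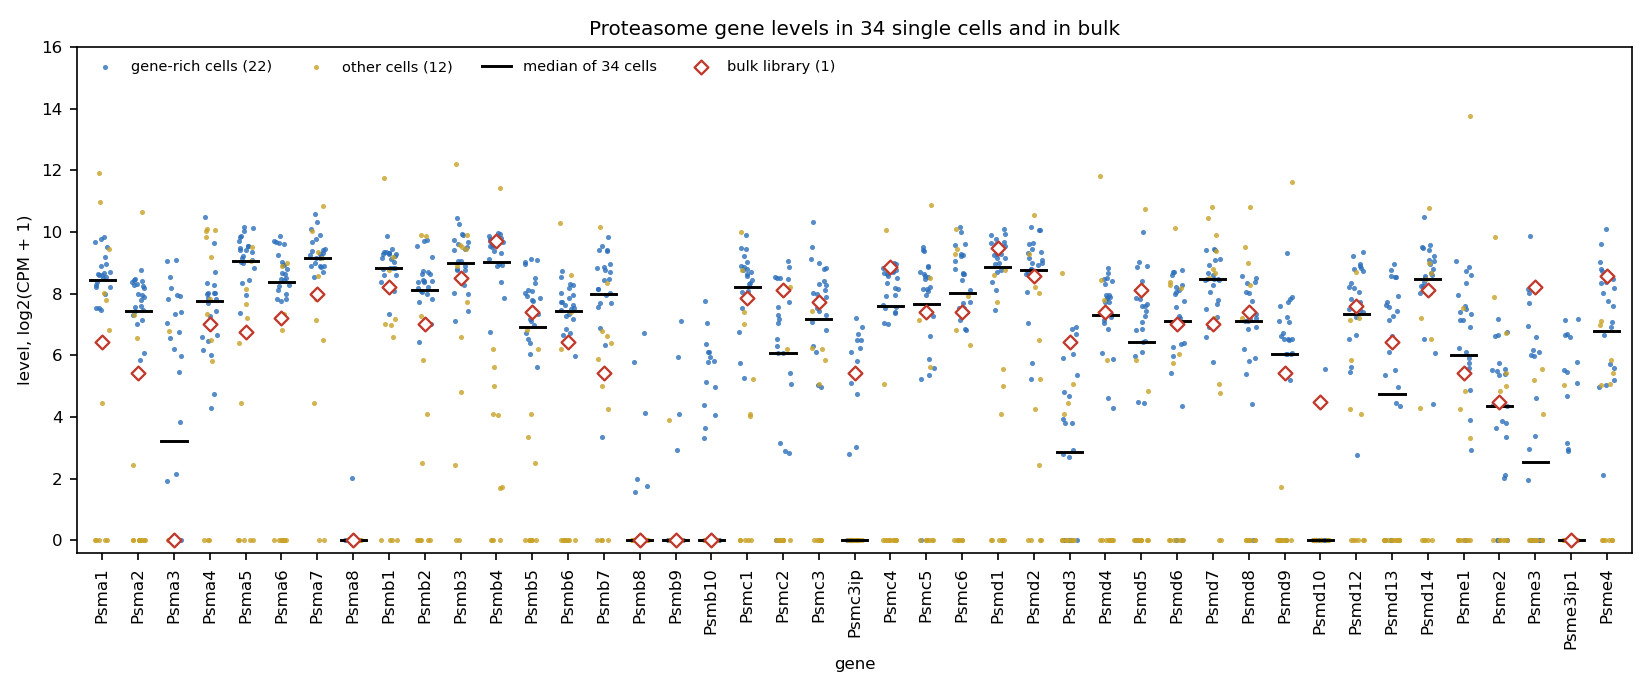
Level of each proteasome gene, as log2(CPM + 1), in each of 34 single cells (blue points, 22 gene-rich cells; yellow points, the other 12), with the median of the 34 cells as a bar and the 1 bulk library as a red diamond; genes are ordered by symbol. The 3 immunoproteasome beta genes lie at 0 in most cells and in bulk, and for the 7 detected Psma genes the bulk diamond lies below the bar, at 0 for Psma3.

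The constitutive catalytic subunits were detected in 26 to 30 of the 34 cells each. Psmb5, which carries the chymotrypsin-like site, was at 0 to 555 CPM in cells, with a median of 119 CPM and the highest value in C05, and at 170 CPM in bulk (8 reads). The bulk value lay inside the range of the cells, 13 of which were above it. Psmb6, the caspase-like subunit, was at 0 to 1253 CPM in cells (median 172 CPM) and at 84.9 CPM in bulk (4 reads). Its cells averaged 2.26-fold the bulk level, with a counting interval of 0.884 to 8.31, or 1.89-fold without C74, the highest cell. Psmb7, the trypsin-like subunit, was at 0 to 1142 CPM in cells (median 254 CPM), whereas bulk held 2 reads, or 42.4 CPM. Its mean in cells was 7.21-fold the bulk level (interval 1.996 to 59.6), and 27 of 34 cells were above bulk. Intervals of ratios are exact Poisson 95% intervals of the bulk reads with the mean of the cells held fixed, and cover counting error only.

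Immunoproteasome beta genes had few reads. Psmb10 was detected in 14 cells (41.2%, exact Clopper-Pearson interval 24.6% to 59.3%), all of them gene-rich. Its highest level was 214 CPM in C05, followed by 132 CPM in C80, and its median over the 34 cells was 0 CPM. Psmb9 was detected in 5 cells, at up to 137 CPM in C38, which held 58.3% of its summed CPM. Psmb8 was detected in 3 cells, at up to 105 CPM in C26, which held 57.5%. All of these genes had 0 reads in bulk. The immune forms held 397 reads over the cells and the constitutive forms 6803, so 5.51% of catalytic beta reads were from immune forms (exact interval 4.998% to 6.07%). That interval treats reads pooled over cells as independent. It does not cover the spread between cells, which ran from 0% in cells such as C23 to 17.9% in C80. In bulk the immune share was 0 of 14 reads, which allows a share of up to 21.4%, so a share like that of the cells was not detectable there. These are shares of reads not scaled for transcript length.

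The immune reads were uneven over cells. At least 1 immune form was detected in 18 cells, at least 2 in 4 cells, and all 3 in 0 cells. In C80, 46 of its catalytic reads were immune and 211 constitutive, a share of 17.9%. In C38 the share was 16.8% and in C05 it was 16.7%. C15 and C23 were also gene-rich, but held 0 immune reads beside 171 and 228 constitutive ones.

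The interferon and antigen presentation list was also examined. Apart from proteasome genes, 16 members of that list were in the table, and B2m, the light chain of MHC class I, was the 1 detected in at least 17 cells (18 cells, mean 22.7 CPM), where 17% of all records were. Stat2 averaged 254 CPM in cells, or 30.4 CPM without C03, which held 7638 CPM, and was at 42.4 CPM in bulk. Ifngr1 averaged 58.1 CPM in cells, or 28.9 CPM without C10, which held 1024 CPM, and was at 21.2 CPM in bulk. Tapbp averaged 39.1 CPM in cells. Tap1, a subunit of the peptide transporter, had 0 reads in the cells and 1 in bulk. Irf1, a transcription factor of the interferon response, was at 0 to 461 CPM in cells, 6 of which detected it, and at 467 CPM in bulk. Of the 7 genes compared, 2 were at least 2-fold higher in cells (Stat2 and Ifngr1, neither of them without its highest cell), beside 26.5% of all records compared. In bulk 4 were at least 2-fold higher, among them Irf1, Irf2 and Tapbp, beside 34.1% of all records.

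Alpha ring genes were higher in cells than in bulk, gene by gene. Together the Psma genes averaged 2568 ± 1224 CPM in cells (SD between 34 cells) and 764 CPM in bulk (36 reads), a ratio of 3.36 (interval 2.43 to 4.80). All 22 gene-rich cells, at 1885 to 4321 CPM, and 30 of all 34 were above bulk. For Psma7 the cells ranged from 0 to 1830 CPM (median 571 CPM), against 255 CPM in bulk, with a ratio of 2.38 (1.36 to 4.61). For Psma1 they ranged from 0 to 3877 CPM (median 349 CPM), against 84.9 CPM in bulk, a ratio of 5.83 (2.28 to 21.4), or 4.63 without C09, the highest cell. For Psma5 the range was 0 to 1154 CPM (median 528 CPM), against 106 CPM in bulk, a ratio of 4.58 (1.96 to 14.1). The bulk levels of Psma7, Psma1 and Psma5 rest on 12, 4 and 5 reads. Of the 34 cells, 28, 28 and 27 were above them, among these all 22 gene-rich cells. The share of all records for which every gene-rich cell lies above bulk is not given here.

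The remaining alpha subunits lay on the same side. Psma2 was at up to 1595 CPM in cells (median 174 CPM), against 42.4 CPM in bulk, a ratio of 4.93 (1.37 to 40.7). Psma6 was at up to 936 CPM (median 329 CPM), against 149 CPM in bulk, a ratio of 2.31 (1.12 to 5.75). Psma4, the counterpart of the yeast subunit whose tail closes the pore, overlapped more, with up to 1445 CPM in cells (median 215 CPM), 127 CPM in bulk and a ratio of 2.57 (1.18 to 7.00), and 21 of 34 cells were above bulk. Psma3 was detected in 17 cells at up to 546 CPM in C10 and had 0 reads in bulk. Its mean in cells, 101 CPM, was at least 1.58-fold higher than the 3-read floor of bulk, or 1.37-fold without C10. Psma8, the testis-specific alpha subunit, had 1 read, in C44.

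**Figure D2:**
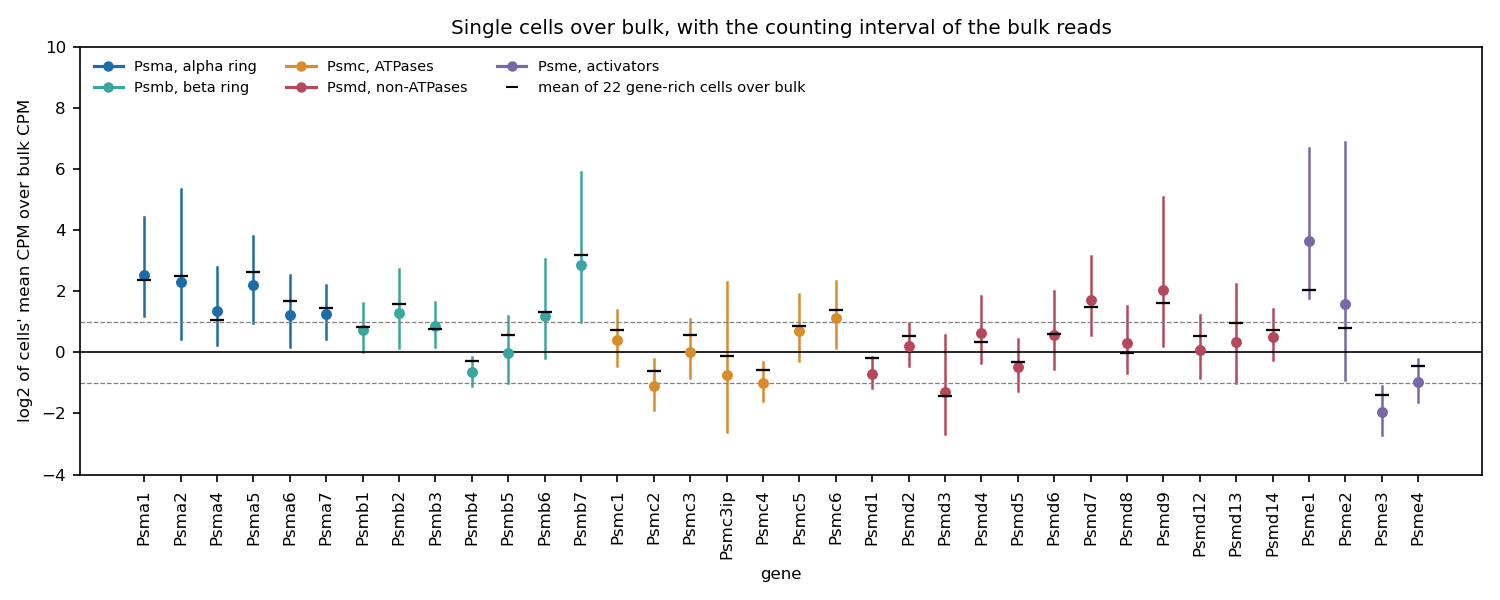
Log2 of the mean CPM of 34 cells over the bulk CPM for each of the 36 proteasome genes compared that had a bulk read; points are coloured by symbol family, lines are exact Poisson 95% intervals of the bulk reads and black ticks use the 22 gene-rich cells. The 6 Psma genes shown all lie above the upper dashed line, which marks 2-fold, with intervals above 0, while Psmc, Psmd and Psme genes lie on both sides.

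Beta ring genes other than the catalytic ones were at higher or lower levels in cells than in bulk, gene by gene. Psmb3 was at up to 4720 CPM in C31 (median 508 CPM), against 361 CPM in bulk, a ratio of 1.81 (1.13 to 3.11). Psmb1 was at up to 3468 CPM in C74 (median 455 CPM), against 297 CPM in bulk, a ratio of 1.68 (1.001 to 3.07). Psmb2 was at up to 953 CPM in C30 (median 278 CPM), against 127 CPM in bulk, a ratio of 2.42 (1.11 to 6.60). Psmb4 went the other way, with up to 2779 CPM in C03 (median 525 CPM) and 828 CPM in bulk. Its ratio was 0.64 (0.47 to 0.90), and 7 of 34 cells were above bulk. Summed, the Psmb genes averaged 2692 ± 1333 CPM in cells and 1910 CPM in bulk (90 reads), a ratio of 1.41 (1.15 to 1.75).

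The ATPases form the unfolding ring at the base of the cap. Summed with Psmc3ip, which is not an ATPase, the Psmc genes had nearly the same level in both, with 1554 ± 918 CPM in cells and 1570 CPM in bulk (74 reads). This ratio, 0.99 (0.79 to 1.26), was 1.26 for gene-rich cells and 0.95 with Rn45s, the ribosomal RNA precursor record, left out of the totals, so it has no direction. Psmc6 was at up to 1147 CPM in cells (median 260 CPM), against 170 CPM in bulk, a ratio of 2.17 (1.103 to 5.03). Psmc2 was at up to 527 CPM (median 66.7 CPM), against 276 CPM in bulk, a ratio of 0.46 (0.27 to 0.87), and 8 of 34 cells were above bulk. Psmc4 lay just inside 2-fold, at up to 1075 CPM (median 195 CPM) in cells and 467 CPM in bulk (ratio 0.50, interval 0.33 to 0.80). Psmc1 (up to 1012 CPM in cells, median 297 CPM, and 233 CPM in bulk), Psmc3 (up to 1282 CPM, median 145 CPM, and 212 CPM) and Psmc5 (up to 1858 CPM, median 201 CPM, and 170 CPM) had intervals that held 1. C03 had 0 Psmc reads among its 217328 reads, which allows up to 13.8 CPM for each gene, while the gene-rich cells held 1188 to 3348 CPM of them in sum.

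Non-ATPase subunits and the chaperones with Psmd symbols summed to 3078 ± 1115 CPM in cells and 2674 CPM in bulk (126 reads), a ratio of 1.15 (0.97 to 1.38). Psmd1, a large scaffold of the base, was at up to 1099 CPM (median 469 CPM), against 722 CPM in bulk, a ratio of 0.62 (0.44 to 0.89). Psmd2, the other scaffold of the base, was at up to 1506 CPM (median 438 CPM), against 382 CPM in bulk, a ratio of 1.15 (0.73 to 1.94). Psmd7, the lid partner of the deubiquitinase Psmd14, was at up to 1804 CPM in C88 (median 358 CPM), against 127 CPM in bulk, a ratio of 3.25 (1.49 to 8.86). Psmd14 itself was at up to 1758 CPM (median 358 CPM) in cells and 276 CPM in bulk, with an interval that held 1. Psmd3, a lid subunit, was at up to 411 CPM in C47 (median 6.32 CPM), against 84.9 CPM in bulk, a ratio of 0.41 (0.16 to 1.49), so 4 bulk reads did not separate it from 1.

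The ubiquitin receptor Psmd4 was at up to 3600 CPM in C39 (median 156 CPM), against 170 CPM in bulk, a ratio of 1.55, or 0.95 without C39. Psmd12, a lid subunit, was at up to 652 CPM (median 160 CPM), against 191 CPM in bulk, a ratio of 1.07 (0.56 to 2.33). Psmd6, Psmd8 and Psmd13 had cell means of 189, 211 and 108 CPM and bulk levels of 127, 170 and 84.9 CPM, with intervals that held 1. Among the chaperones of base assembly, Psmd9 was at up to 3161 CPM in C03 (median 65.6 CPM), against 42.4 CPM in bulk, a ratio of 4.16 (1.15 to 34.3). C03 held 52.7% of it, and without that cell the ratio was 2.03. Psmd5 was at up to 1730 CPM (median 86.0 CPM) in cells and 276 CPM in bulk (0.72, interval 0.42 to 1.35). Psmd10, also known as gankyrin, had 3 reads in cells, all in C17, and 1 read in bulk.

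The activators lay on both sides of their bulk levels. Psme1, which with Psme2 forms the interferon-inducible 11S cap, was at up to 13995 CPM in C94 (median 64.0 CPM), against 42.4 CPM in bulk (2 reads). C94 is the shallowest library, and its 88 Psme1 reads were 77.5% of the summed CPM of the gene. The mean of the cells was 531 CPM with C94 and 123 CPM without it, and the ratio to bulk 12.5 (3.47 to 103) with it and 2.91 without. Psme2 was at up to 907 CPM in C45 (median 19.6 CPM), against 21.2 CPM in bulk (1 read), a ratio of 2.99 (0.54 to 118), or 1.79 without C45.

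Psme3, the activator found in the nucleus, was the gene most in favour of bulk among the proteasome genes compared. It was at up to 938 CPM in C40 (median 4.84 CPM), against 297 CPM in bulk (14 reads), and C40 was the 1 cell above bulk. Its ratio was 0.26 (0.15 to 0.47), or 0.17 without C40. Psme4, which encodes PA200, was at up to 1089 CPM in C26 (median 110 CPM), against 382 CPM in bulk, a ratio of 0.51 (0.32 to 0.86). The summed Psme genes, 890 ± 2352 CPM in cells and 743 CPM in bulk, had a ratio of 1.198 (0.86 to 1.72) with C94 and 0.66 without it, so their direction rests on that cell. Both interaction partners were low. Psmc3ip, which acts in meiotic recombination, was detected in 13 cells at up to 148 CPM and was at 42.4 CPM in bulk. Psme3ip1 was detected in 14 cells at up to 143 CPM and had 0 reads in bulk.

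Counted together, 15 of the 37 proteasome genes compared (40.5%) were at least 2-fold higher in cells on the log2(CPM + 1) scale, where 26.5% of all 5595 records compared were. Compared were records whose cell mean and bulk level averaged 20 CPM or more. With records that lacked a bulk read set to the 3-read floor, it was 14 of 37, beside 12.4% of all records. The 15 were the 7 Psma genes, Psmb2, Psmb6, Psmb7, Psmc6, Psmd7, Psmd9, Psme1 and Psme2, and for 12 of them the interval lay above 1. In the other direction 3 genes, Psmc2, Psmd3 and Psme3, were at least 2-fold higher in bulk, where 34.1% of all records were. The median log2 ratio was 0.63 over the proteasome genes and −0.27 over all records compared. With no filter on low levels it was 0.69 over the proteasome genes and 0.94 over all records, so which of them is higher depends on that filter. With the filter on, the median was 0.96 over 79 ribosomal protein genes and −0.12 over the 8 CCT chaperonin genes. Both sets also encode large assemblies. Of these ribosomal protein genes, 12 lacked a bulk read. With such records set to the 3-read floor, the median was 0.69 over ribosomal protein genes and 0.63 over proteasome genes.

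In sum, the proteasome genes took 10781 ± 3230 CPM in cells, with 1961 CPM in C88 at the low end, a median of 11266 CPM and 15420 CPM in C74 at the high end, and 7661 CPM in bulk (361 reads). The ratio was 1.41 (1.27 to 1.56), or 1.22 to 1.64 where each pair of bulk reads is counted as 1 read. All 22 gene-rich cells and 28 of all 34 cells were above bulk. Ribosomal protein genes, at 49352 ± 12497 CPM in cells and 30857 CPM in bulk, had a ratio of 1.60 (1.52 to 1.69), and CCT genes, at 4862 ± 3009 CPM in cells and 5008 CPM in bulk, one of 0.97 (0.85 to 1.11). Between gene-rich cells the proteasome sum ran from 8616 CPM in C25 to 14934 CPM in C23, a coefficient of variation of 13.5%. It was 15.6% for ribosomal protein genes and 46.8% for CCT genes. These are sums over 43 proteasome, 82 ribosomal protein and 8 CCT genes, so they do not rank the spread of single genes. Gene by gene over the 34 cells, the median squared coefficient of variation was lower for CCT genes than for proteasome genes. That median is not adjusted for level and covers genes whose mean reached 10 CPM.

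**Figure D3:**
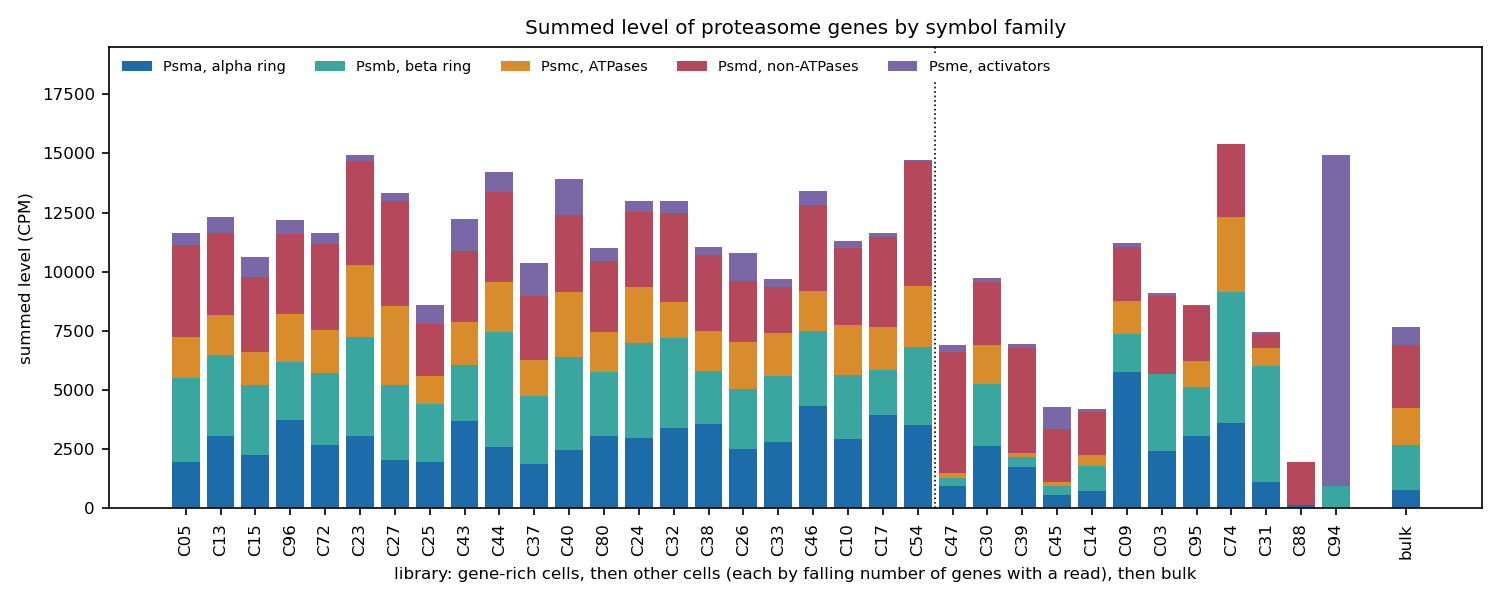
Summed CPM of the proteasome genes in each library, stacked by symbol family: 22 gene-rich cells, the other 12 cells after the dotted line, both in order of falling gene number, and the bulk library at the right. The gene-rich cells lie between 8616 and 14934 CPM, all above the 7661 CPM of bulk, and the bar of C94 is mostly Psme1.

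The libraries also differed in other ways, whose part in these ratios was not tested. Rn45s averaged 25085 CPM in the cells, 9200 CPM in the gene-rich cells and 55495 CPM in bulk. The 5 fibroblast markers (Col1a1, Col1a2, Col3a1, Thy1 and Postn) summed to 0 to 3083 CPM in cells (median 0 CPM) and 1677 CPM in bulk, with Thy1 at 0 reads in both. The 4 immune markers summed to 0 to 22.7 CPM in cells and 212 CPM in bulk. All of that bulk signal was Lcp1, which had 0 reads in cells, and Tyrobp had 0 reads in both. The trophoblast gene Prl3d1 had 0 reads in cells and 12 in bulk. Col1a2 was detected in 4 cells, and the proteasome sums of these (C14, C17, C30, C46) were 4204, 11655, 9749 and 13412 CPM. In the bulk library, fewer cells that express a gene and less of its RNA per cell cannot be told apart.

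With the cap counted as all Psmc and Psmd genes, the core took a larger share of reads in gene-rich cells than in bulk. That count includes the assembly chaperones Psmd5, Psmd9 and Psmd10 and the interaction partner Psmc3ip, which are not cap subunits. In bulk these held 13, 2, 1 and 2 of the cap reads, in that order. Of all reads on Psma, Psmb, Psmc and Psmd genes, the core genes (Psma and Psmb) held 40.05% in C27 to 59.9% in C33 over the gene-rich cells, with a median of 53.5%, and 38.7% in bulk (126 core and 200 cap reads, exact interval 33.3% to 44.2%). On this count all 22 gene-rich cells were above the bulk share, and the interval of C27, 38.5% to 41.6%, overlapped that of bulk. The share without the chaperones and Psmc3ip was not computed, so whether C27 would stay above bulk is not shown here. Among the other 12 cells the share ran from 8% in C88 (2 core and 23 cap reads) to 100% in C94 (6 core and 0 cap reads). Within the core, the ratio of Psma to Psmb reads was 0.54 to 2.06 in gene-rich cells (median 0.89) and 0.40 in bulk.

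**Figure D4:**
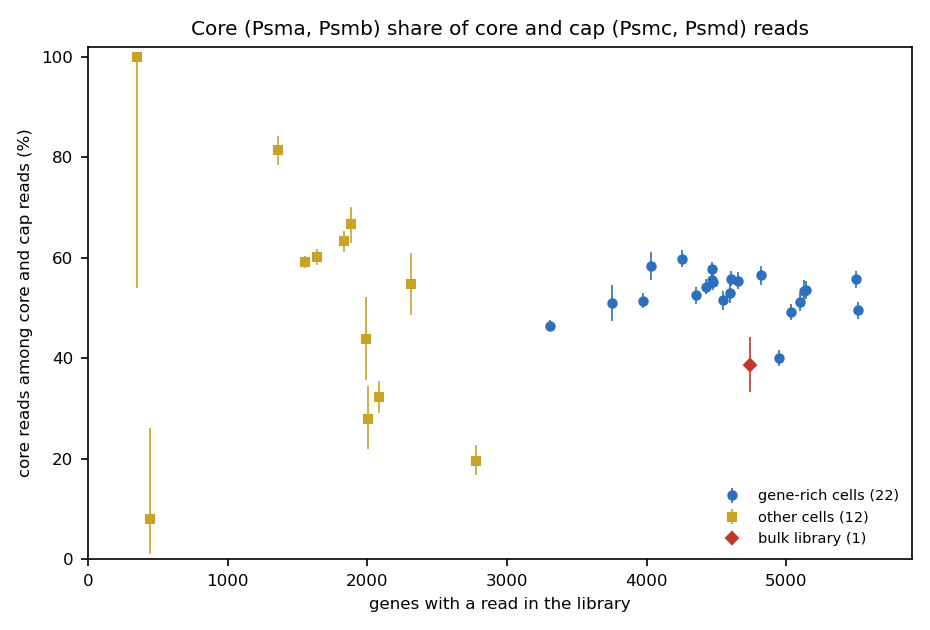
Share of core (Psma and Psmb) reads among core and cap (Psmc and Psmd) reads, in percent, against the number of genes with a read, for 22 gene-rich cells (circles), 12 other cells (squares) and the bulk library (diamond); lines are exact 95% intervals. Gene-rich cells lie between 40.05% and 59.9%, above the 38.7% of bulk, and the other cells spread from 8% to 100%. Cap reads here include those of the chaperones Psmd5, Psmd9 and Psmd10 and of Psmc3ip.

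From cell to cell, most proteasome genes varied less than the trend for records of their level, by an amount that depends on the measure. Excess spread is the log10 of the squared coefficient of variation of CPM less its trend on mean level, so a negative value is less spread than the trend. Over the 39 proteasome genes whose mean reached 10 CPM its median was −0.20, and 30 lay below the trend (76.9%). Over all 6669 such records the median was −0.01, with 50.8% below the trend. Measured by the SD of log2(CPM + 1) in place of the coefficient of variation, the median of the proteasome genes was −0.028. By the coefficient of variation, as for the −0.20 above and the values that follow, ribosomal protein genes had −0.41 and CCT genes −0.07. The steadiest were Psma7 (−0.44), Psma5 (−0.43), Psmd1 (−0.41), Psma6 (−0.41) and Psmd12 (−0.39). The most uneven were Psme1 (1.17), Psmd9 (0.60), Psmd4 (0.44), Psme2 (0.24) and Psme3 (0.20). For Psme1, Psmd9, Psmd4 and Psme2 a single cell (C94, C03, C39 and C45) held 77.5%, 52.7%, 40.2% and 42.0% of the signal.

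Levels of proteasome genes were mostly positively correlated over all cells, and less so among the gene-rich ones. The median Spearman's rho over 741 pairs of proteasome genes was 0.30 over the 34 cells and 0.03 over the 22 gene-rich cells (780 pairs). For pairs of all records it was 0.14 over the 34 cells and 0.01 over the gene-rich ones. Over 34 cells the closest pair was Psmb5 with Psmd1 (rho 0.84), and over gene-rich cells Psmb7 with Psmc3ip (0.77) and Psma5 with Psmd14 (0.69). A proteasome gene set against the sum of the others had a median rho of 0.31 over 34 cells, with 35 of 39 genes positive, and of 0.17 over gene-rich cells, with 26 of 40 positive. Against the sum of the proteasome genes, all records had a median of 0.15 over 34 cells, with 5314 of 6669 positive. Over gene-rich cells that median was 0.01, with 3542 of 6832 positive. Psme1 stood at −0.59 with the sum of the others over gene-rich cells, and its rho there was −0.54 with Psmc2 and −0.52 with Psmd14. All cells share 1 library chemistry and differ in depth, and these correlations are descriptions.

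**Figure D5:**
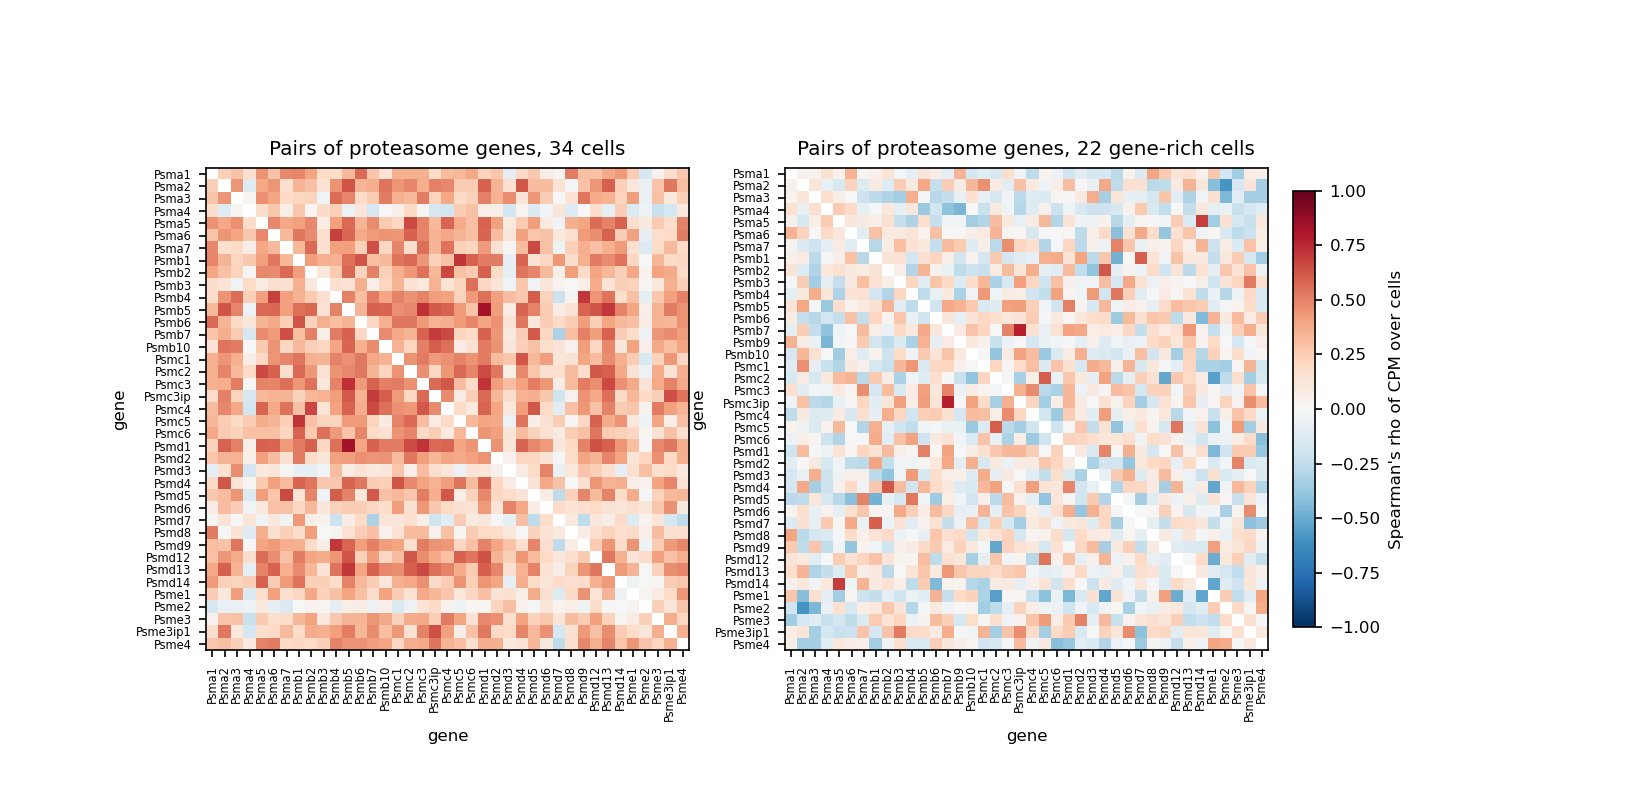
Spearman's rho of CPM for each pair of proteasome genes whose mean reached 10 CPM, over all 34 cells (left) and over the 22 gene-rich cells (right); red is positive and blue negative. The left panel is mostly red, with a median of 0.30, and the right panel is mixed, with a median of 0.03.

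A list of genes that work with the proteasome was examined in the same way. Of 30 such genes on a list of ubiquitin, shuttle, assembly and accessory factors, 21 were in the table, and 18 of these were detected in at least 17 cells, where 17% of all records were, and 43.8% of those whose cell mean reached 10 CPM. Ubb, which encodes a chain of ubiquitin units, was at 0 to 87974 CPM (median 7066 CPM) in cells and 5603 CPM in bulk. Vcp, the segregase that extracts tagged proteins, averaged 905 CPM in cells and 1231 CPM in bulk. Pomp, the chaperone of core assembly, averaged 615 ± 553 CPM in cells, 30 of which detected it, and 340 CPM in bulk. Of 19 genes compared, 3, among them Psmg2 and Nfe2l2, lacked a bulk read and were at least 2-fold higher in cells, 1 of them (Nfe2l2) also against the 3-read floor, and 3 were at least 2-fold higher in bulk (Adrm1, Ubqln1 and Uba1). Both counts are below the shares of all records compared, 26.5% and 34.1%.

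Promoters of 300 bases were matched for 39 of the 43 genes. Motifs were searched on both strands and are descriptions of letters in these windows. TGACNNNGC was in 8 of 39 (20.5%), including the Psmb5 and Psmb6 promoters printed above, in 12.1% of all 33469 promoters and in 15.3% of those of genes whose mean in these cells reached 10 CPM. Its looser form TGANNNNGC, which contains it, was in 56.4% of the proteasome promoters, 40.5% of all and 44.3% of those of expressed genes. The exact form TGACTCAGC was in 0 of 39 and in 0.415% of all. The interferon-stimulated response element core, searched as GAAA, any 2 bases and GAAA, was in 6 of 39 (15.4%): Psma4, Psmb3, Psmb8, Psmb10, Psmd7 and Psme2. It was in 3.92% of all promoters and in 2.79% of those of expressed genes. Psmb10 held it at 2 places.

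Other motifs common in promoters were counted in the same way. CCGGAAG, the letters of an ETS factor site, was in 35.9% of the proteasome promoters, in 8.75% of all promoters and in 22.8% of promoters of genes whose mean in these cells reached 10 CPM. The overlapping form CGGAAGT was in 38.5% and 6.32% of proteasome and all promoters and in 17.8% of those of expressed genes. CCAAT was in 53.8% of the proteasome promoters and in 38.5% of those of expressed genes, GGGCGG in 71.8% and 64.7%, and TTCNNNGAA in 10.3% and 7.27%. The palindrome of TCTCG followed directly by CGAGA was in those of Psmb2 and Psmd5, or 5.13%, and in 1.42% of those of expressed genes.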

How the data were processed

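The authors deposited whole-number read counts for each RefSeq transcript record, and these were used for all 34 cells and the bulk library. The submitters' processing notes name TopHat2 and rn5. What counter, annotation and treatment of multi-mapping reads they used is not given in the sources used here. The labels mention no molecular identifiers, and even numbers made up 59.8% to 72.6% of nonzero counts in cells and 79.9% in bulk, so intervals and floors, which cover counting error only, are too narrow and too low.

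Records were matched to symbols through RefSeq's gene table (16215 of 17201). CPM used column totals. Each group is 1 sample, so no test was run and SDs describe cells. None of the 561 pairs of cells held identical counts. No doublet caller was run and no cell was removed. The spread trend was a lowess fit (fraction 0.3). Ribosomal protein genes exclude Rps6k kinases and pseudogene records. Alternatives used TMM factors of edgeR 4.0.16 and poscounts size factors of DESeq2 1.42.0 in R 4.3.3, and the rest used Python 3.11.15 with scipy 1.17.1. Fold, spread and correlation steps were tested on simulated data.

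The genes and lists were chosen with earlier results of these data known. Every proteasome gene is accounted for, and full values are given for the catalytic subunits, the 3 highest and the lowest by mean CPM in each family (a choice, not an order of levels, since CPM is not scaled for transcript length), genes past 2-fold, the 5 with the highest and the 5 with the lowest excess spread, and genes with most of their signal in 1 cell. For the pathway and interferon lists, the 4 genes with the highest mean were to be named, and some genes of these lists are not reported here. Pomp, Irf1, Tap1, B2m and the genes of both lists past 2-fold were named after their values were seen. Psmg1, Psmg3, Uchl5, Paaf1, Ecpas, Zfand5, Ube3c, Nfe2l1, Ddi2 and Nlrc5 were not analysed here.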

Additional observations from a re-analysis of the deposited data

How the results depend on the processing

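Of 90 recomputed values, 73 stayed within the spread between cells, the counting interval or a set limit (1.5 times for counts, 0.5 for log2 ratios, 0.1 for excess spread and rho). A change of direction could be recorded only for the sum ratio, median log2 ratio, excess spread and rho, and 0 of these values changed direction. The comparison with all records and the Psmc and Psme sum ratios, given below, were not among the 90 and did change side. With poscounts size factors the median summed level was 3589 CPM, the ratio of cells to bulk 2.30, the median log2 ratio 1.36 and the number of genes at least 2-fold higher in bulk 1. The same sum ratio was 1.58 for gene-rich cells and 1.59 with TMM factors. At 3-fold, 8 genes were higher in cells and 1 in bulk, and at 1.5-fold, 8 were higher in bulk. With the median over cells, 9 genes were at least 2-fold higher in cells and 8 in bulk. With totals without Rn45s, 5 were higher in bulk. The median over all records compared moved with scaling too, being −0.27 as reported, −0.07 with TMM factors, 0.67 with poscounts, −4.29 with the median over cells and 0.94 with no filter on low levels, where the proteasome genes had 0.69. The sum ratio of Psma genes was 3.24 to 5.68 over these scalings and sets of cells, of Psmb genes 1.35 to 2.45 and of Psmd genes 1.11 to 1.92, whereas that of Psmc genes was 0.95 to 1.62 and that of Psme genes 0.66 to 1.24. The median excess spread was −0.028 as the SD of log2(CPM + 1). The median rho of a gene with the others was 0.17 over gene-rich cells, and 0.49 and 0.53 against sums of log2 values with pseudocounts of 0.1 and 10 CPM. The immune share of mean CPM, 5.33%, was 6.32% in gene-rich cells. The cause of these moves was not tested. No paired analysis was possible because each group is 1 sample and no test was run. Levels scaled for transcript length were not run, since no length table was given. Depth limits what can be seen: with 47121 reads, genes under 63.7 CPM could be missed in bulk, and C14, C30, C88 and C94 are shallower still, and 16 of the genes compared had intervals that held 1.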

Other observations

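The cell labelled C14 held the highest level of the ubiquitin gene Ubb, 87974 CPM, where the median over the 34 cells was 7066 CPM and bulk had 5603 CPM. Its proteasome sum, 4204 CPM, was among the lowest. C14 had 35681 reads and 1993 genes with a read, and it was a cell with reads of Col1a1 and Col1a2. The part of depth and of cell type in these levels was not tested.

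Nfe2l2, a transcription factor of antioxidant and proteasome genes, was detected in 25 cells, averaged 176 ± 336 CPM in cells and had 0 reads in bulk. Its rho with the proteasome sum was 0.16 over 34 cells and −0.08 over the 22 gene-rich cells.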
